A study of Mus musculus with 6 samples.

Results

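Tendon and ligament regulators are represented on the arrays by 9 genes, Scx, Mkx, Egr1, Egr2, Tnmd, Kera, Six2, Eya1 and Eya2. They were taken by gene name from the non-control spots and gave 11 of 55672 probes, each kept apart. Of these 11, 10 were bright enough to be tested, among 23881 tested probes in all. The samples were outer and intermediate interzone of mouse embryos at 15.5 days of gestation, with 3 arrays per layer and 1 embryo per replicate. Where a synovial joint will form, the interzone separates the cartilage templates as a strip of densely packed cells. Its outer layers lie against the templates and its intermediate layer lies between them. Strain, joint and the way the layers were separated are not given in the sources used here. RNA was amplified, labelled with Cy3 and hybridised to 1-colour Agilent arrays. A level is the log2 ratio of processed signal to that array's 75th percentile, and a difference is outer minus intermediate on that log2 scale. SDs are over n = 3 arrays, and because each probe has its own brightness, levels are compared only within a probe.

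Tendons and ligaments form from progenitors marked by Scx, a basic helix-loop-helix transcription factor. TGF-beta signalling maintains these cells in mouse embryos. The homeobox factor Mkx and the zinc finger factors Egr1 and Egr2 promote the collagen matrix of tendon. Tnmd, a membrane glycoprotein, is a target of Scx and marks differentiated tendon cells, and Kera is a small proteoglycan of cornea and tendon. Six2 is a homeobox factor, and Eya1 and Eya2 are phosphatases that act as partners of Six2 and its relatives. Transcripts of all 3 have been mapped to tendon-forming tissue of the mouse limb.

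Each probe is 60 bases long, and the stretches from base 31 to base 60 of some of them are shown here because the results turn on them. The Eya2 probe gave the called difference, and its capitals mark the letters AATAAA, the usual polyadenylation signal. The capitals in the Eya1 probe mark a repeat of the bases T and G. Of the 3 Six2 probes, the last was not tested.
Eya2 (A_55_P2141093): gcattcAATAAAaaccacgtttacatttta
Eya1 (A_55_P2423586): GTGTGTGTGTGTGTGTGTGTGTGTGTGTGT
Six2 (A_55_P2033308): gggagatatttctgcttttattttataata
Six2 (A_51_P354224): tttctaagagtccgacgtgatgtgaacgga
Six2 (A_55_P2119234): aacagaattctcctgtgtcagcccacttgg
In build mm9 the Eya2 probe lies on chromosome 2 from 165597072 to 165597131 and the Eya1 probe on chromosome 1 from 14159982 to 14160041. The Six2 probes lie on chromosome 17, from 86083634 to 86083693, from 86083986 to 86084045 and from 86082307 to 86082366 in the order shown. The Scx probe lies on chromosome 15 from 76289708 to 76289767, the Tnmd probe on chromosome X from 130397487 to 130397546, the Kera probe on chromosome 10 from 97076230 to 97076289 and the Egr2 probe on chromosome 10 from 67004798 to 67004857.

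The 75th percentile of the signal was 47.4 to 290 on the outer arrays and 144 to 344 on the intermediate arrays. The array of outer replicate 1 was the dimmest. Signal stood well above background at 35.6% of its spots and at 45.1% to 53.4% of those on the other arrays. Gdf5, a growth factor gene used as the interzone marker, was well above background on every array and stood at 4.69, 6.81 and 5.57 in outer and 5.25, 6.72 and 5.12 in intermediate samples. Cartilage markers were higher in the outer interzone, with 12 of 14 called where 1.44% of all tested genes were called higher. Leukocyte markers were lower there, with 11 of 12 called, and so were 7 of 10 endothelial markers, where 2.28% of all tested genes were called lower. Some markers of each list were tested only through the layer where they were high, so the filter favoured their direction. Where signal was required on all 6 arrays, 8 of 10 cartilage markers were called higher. There 6 of 6 leukocyte and 4 of 6 endothelial markers were called lower. In that setting 280 of 18804 probes were called higher and 246 lower. In such bulk samples, fewer cells of a type and less RNA per cell cannot be told apart. Same-numbered samples of the layers deviated together, so differences within each replicate number are given too. Slide 1 carried outer replicate 1 beside every intermediate array, and slide 2 carried outer replicates 2 and 3. A slide block and slide 1 alone therefore return one and the same difference, which rests on that dim outer array and is called the slide-adjusted difference here. Blocking on replicate number and slide together leaves only the difference within replicate 1.

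Eya2 was the one regulator whose difference between the layers was called. Its transcript was lower in the outer interzone, and no other of the 10 tested probes passed limma's test at adjusted p 0.05. This is 1 of 10, where 3.48% of all tested probes were called in either direction with 1.33% higher and 2.16% lower in the outer interzone. The probes of Scx, Mkx, Egr2, Tnmd and Kera had differences below 0 that did not pass. Those of Egr1 and Eya1 and the 2 tested Six2 probes had differences above 0 that did not pass either. The median difference of the 10 probes was -0.31, against 0.09 over all tested probes.

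**Figure D1:**
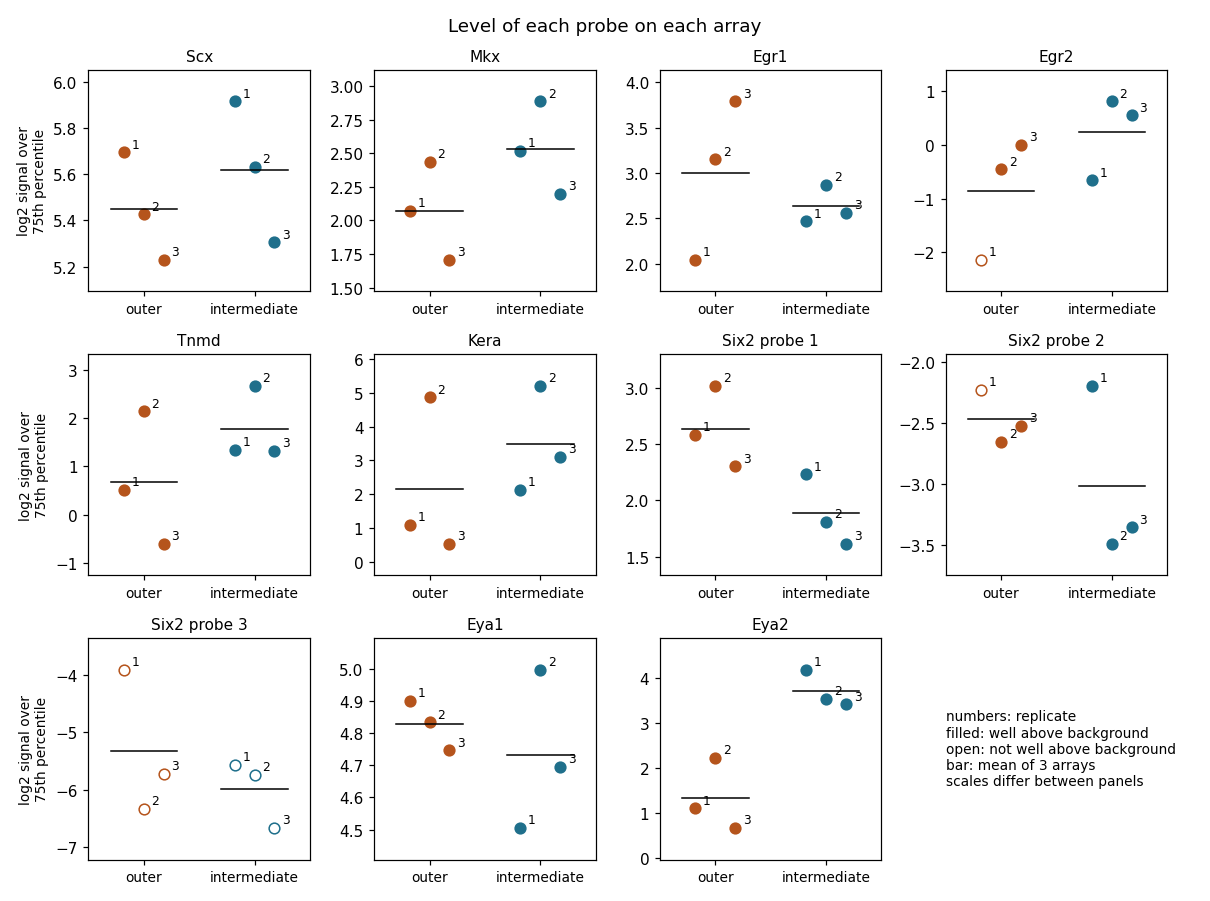
Level of each of the 11 probes on each array, as log2 signal over the array's 75th percentile, with outer samples left of intermediate samples, replicate numbers beside the points and the mean of 3 arrays as a bar. Eya2 and the first Six2 probe are the tested probes whose layers do not overlap, and open points are not well above background.

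Scx differed little between the layers. It stood at 5.69, 5.43 and 5.23 in outer replicates 1, 2 and 3 and at 5.91, 5.63 and 5.31 in intermediate replicates 1, 2 and 3. The layers overlapped, and within every replicate number the outer sample was slightly the lower one, by 0.22, 0.20 and 0.08. The difference was -0.17 (95% interval -0.70 to 0.37, limma adjusted p = 0.719), and the slide-adjusted difference was 0.08. A change of 1 log2 unit in either direction lies outside that interval.

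Mkx (chromosome 18) is needed in mouse for the growth of tendon collagen fibrils. It stood at 2.07, 2.43 and 1.71 in outer samples and 2.52, 2.88 and 2.20 in intermediate samples. The layers overlapped, but the outer sample was lower within each number by nearly the same amount, 0.45, 0.45 and 0.49. The difference was -0.46 (95% interval -1.09 to 0.16, limma adjusted p = 0.374), the slide-adjusted difference was -0.46, and blocking on replicate number gave adjusted p = 0.0844. Over the 17 alternatives the adjusted p ran from 0.0844 to 0.673.

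Egr1 and Egr2 are immediate early factors, induced within minutes by growth factors or mechanical load. Egr1 (chromosome 18) stood at 2.05, 3.15 and 3.79 in outer samples and 2.47, 2.87 and 2.56 in intermediate samples. The outer samples spread around the intermediate ones, with an SD of 0.88 among outer and 0.21 among intermediate samples. The difference was 0.36 (95% interval -0.63 to 1.35, limma adjusted p = 0.669) and the slide-adjusted difference was -0.59, so the direction of Egr1 is not settled. It also turned to -0.08 when arrays were scaled to their medians.

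Egr2 stood at -2.13 in outer replicate 1, where it was not well above background, at -0.45 in outer replicate 2 and at the percentile itself in outer replicate 3. The intermediate samples stood at -0.66, 0.81 and 0.55. The layers overlapped through the lowest intermediate sample, but within each number the outer sample was lower, by 1.48, 1.26 and 0.55. The difference was -1.10 (95% interval -2.54 to 0.34, limma adjusted p = 0.36), the slide-adjusted difference was -2.37, and the adjusted p ran from 0.0548 to 0.635 over the 16 alternatives that tested it. Egr2 is also known as a factor of myelinating Schwann cells and is induced in macrophages. Of 12 Schwann cell and nerve markers, 5 were tested and 2 were called, both lower in the outer interzone as were 2.28% of all tested genes. They were the neurofilament genes Nefl (-2.53, limma adjusted p = 0.00544) and Nefm (-2.50, limma adjusted p = 0.00873). Nefm was well above background on 2 of the 3 outer arrays and was tested only through the intermediate layer. The myelin gene Mbp, well above background on 1 of the 3 outer arrays, differed by -2.45 and was not called (limma adjusted p = 0.113). The other tested markers, Pmp22 and Pou3f1, were higher in the outer interzone, by 0.39 and 0.61, and not called (limma adjusted p = 0.271 and 0.122). For the Schwann cell marker Erbb3, none of the 6 arrays gave signal well above background. The mean level of 12 leukocyte markers was also lower in outer samples, at -1.32, 0.45 and -0.64 against 2.42, 2.26 and 3.05 in intermediate samples. The layers did not overlap in this mean, whereas they did for Egr2. The part of leukocytes in the Egr2 result was not tested.

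The region before the Egr2 start site is shown because immediate early genes are controlled through CArG boxes, the sites of serum response factor. It is the RefSeq window of GRCm38.p6 at chromosome 10, plus strand, 67537619 to 67537918, 5′ to 3′, from 250 bases before to 50 bases after one of the gene's start sites. Capitals mark letters that match 1 E box (CANNTG), 2 Smad sites (CAGAC or its reverse complement GTCTG) and 1 CArG box, none of which overlap.
Egr2 start region: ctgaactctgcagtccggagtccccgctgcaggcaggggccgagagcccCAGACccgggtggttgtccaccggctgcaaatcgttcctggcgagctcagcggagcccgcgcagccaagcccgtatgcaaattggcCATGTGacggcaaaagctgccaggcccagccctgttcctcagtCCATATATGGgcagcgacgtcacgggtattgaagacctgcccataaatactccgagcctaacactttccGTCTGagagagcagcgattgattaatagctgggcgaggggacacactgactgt
The CArG letters start at base -72 from the start site. On both strands, 1.57% of 27025 promoter windows, 1 per gene, held a CArG box, 49.7% a Smad site and 72.1% an E box. These shares take the first listed window of each gene. For Egr2 that is another window, without a CArG box, so the shares are not a like comparison for the window shown. The table holds 5 windows for Egr2 and 4 of them hold CArG letters, at 2 distinct positions, since 3 of the windows overlap and share this box. These matches describe letters and say nothing of binding.

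Of 17 genes in the list of Egr relatives, corepressors and early genes, 14 were tested and 0 were called by limma, against 3.73% of all tested genes, a count too small to set apart from that share. An unadjusted p under 0.05 was found for 3 of them, against 20.7% of all tested genes. With the replicate block 0 were called, against 7.54% of all tested genes, and 4 had an unadjusted p under 0.05, against 32.6%. For 3 of the 14, Junb, Nab1 and Fosl2, every outer sample lay below every intermediate sample, as for 11.4% of all tested genes. Junb was well above background on 0 outer arrays and was tested only through the intermediate layer, so its order says little. The median difference of the 14 was -0.34, against 0.10 over all tested genes. Fos stood at 0.80, 1.88 and 1.59 in outer samples and 2.32, 2.58 and 1.76 in intermediate samples (difference -0.80, limma adjusted p = 0.246). The brightest tested members, Jund and Jun, differed by 0.04 and -0.08. Egr3 and Egr4 were not well above background on any array.

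Tnmd and Kera varied widely among samples of the same layer. Tnmd stood at 0.52, 2.14 and -0.60 in outer samples and 1.34, 2.67 and 1.32 in intermediate samples. Kera stood at 1.08, 4.87 and 0.53 in outer samples and 2.14, 5.22 and 3.11 in intermediate samples. For both genes the replicate 2 sample was the highest of its layer, and outer replicate 3 was the lowest of all 6. Mkx showed the same features, and outer replicate 3 was also the lowest of all 6 for Scx and Eya2. Each of these probes is printed 10 times on the array, and the SD over its spots was at most 0.171 for Tnmd and 0.0951 for Kera on any array, which covers spot noise within 1 labelled sample only. The within-layer SD of Kera was 2.01 and that of Tnmd 1.12, above 99.8% and 98.5% of tested probes, whose median was 0.29.

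The layer difference of Tnmd was -1.09 (95% interval -2.74 to 0.55, limma adjusted p = 0.423), with the outer sample lower in each number by 0.83, 0.53 and 1.92. That of Kera was -1.33 (95% interval -4.24 to 1.58, limma adjusted p = 0.588), with the outer sample lower by 1.05, 0.35 and 2.58. Neither passed with the replicate block (adjusted p = 0.0887 and 0.124). The slide-adjusted differences were -1.26 and -2.41. Over the 17 alternatives the adjusted p ran from 0.0887 to 0.766 for Tnmd and from 0.121 to 0.884 for Kera. Both intervals hold 0 as well as a several-fold lower level in the outer interzone.

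Among 4972 genes measured on all 6 arrays with a range of at least 1 log2 unit, the gene whose profile lay closest to that of Kera was Tnmd. The root mean square difference between their levels, each centred on its mean over the 6 arrays, was 0.83. Next were the homeobox gene Gsc at 0.89 and Fndc5 at 0.95. The genes closest to Tnmd were Ly6h (0.43), Asb9 (0.45) and Dcn (0.47), the last a small proteoglycan of tendon matrix. These likenesses describe 6 arrays, 3 from each layer. The mean level of skeletal muscle markers over 12 tested genes was -2.46, 1.27 and 1.41 in outer samples and -0.44, 1.30 and 2.28 in intermediate samples. Only 2 of the 12 stood well above background in outer replicate 1, so the mean there rests largely on values near background. The part of muscle in the spread of Tnmd and Kera was not tested.

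**Figure D2:**
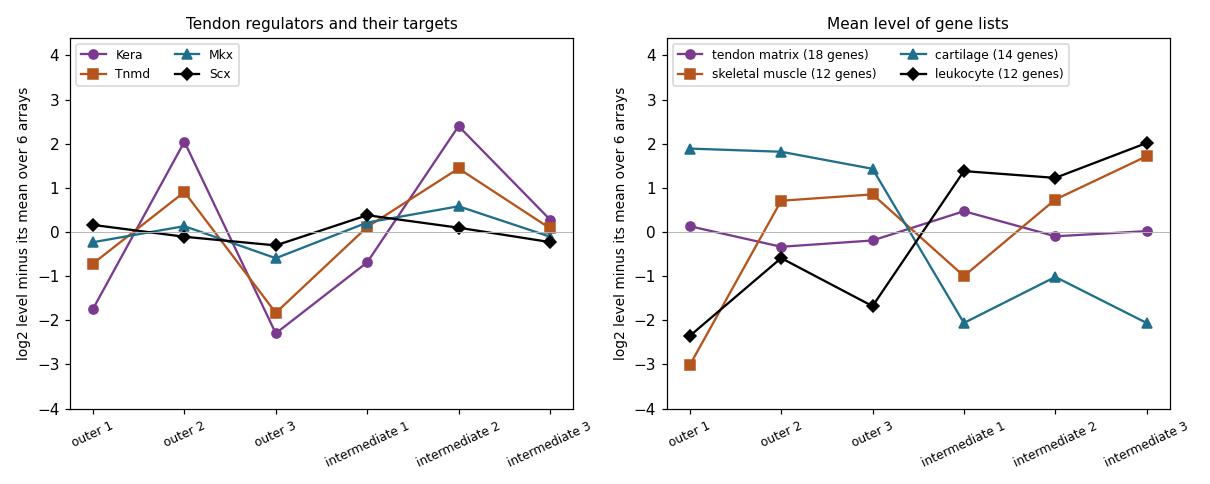
Left, Kera, Tnmd, Mkx and Scx on the 6 arrays, each as its log2 level minus its mean over the arrays; right, the mean level of 4 gene lists, centred the same way. Kera, Tnmd and Mkx peak in the replicate 2 sample of both layers, where Scx does not, and the lines join arrays only to guide the eye.

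The regions around the Tnmd and Kera start sites are shown because Tnmd was the gene nearest to Kera by profile. They are RefSeq windows of GRCm38.p6 on the plus strand, from 250 bases before to 50 bases after the start, at chromosome X 133850758 to 133851057 and chromosome 10 97606955 to 97607254.
Tnmd start region: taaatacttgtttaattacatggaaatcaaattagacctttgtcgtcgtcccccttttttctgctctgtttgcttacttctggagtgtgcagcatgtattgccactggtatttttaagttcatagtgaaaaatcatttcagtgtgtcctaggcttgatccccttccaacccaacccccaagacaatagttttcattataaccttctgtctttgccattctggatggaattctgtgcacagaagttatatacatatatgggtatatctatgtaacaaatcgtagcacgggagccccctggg
Kera start region: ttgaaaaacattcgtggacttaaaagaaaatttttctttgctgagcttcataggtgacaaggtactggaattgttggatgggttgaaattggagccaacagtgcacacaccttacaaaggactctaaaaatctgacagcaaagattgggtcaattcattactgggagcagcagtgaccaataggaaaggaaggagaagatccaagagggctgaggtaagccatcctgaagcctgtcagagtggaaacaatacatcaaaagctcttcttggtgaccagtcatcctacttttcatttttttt
On either strand neither window held an E box (CANNTG, the kind of site that Scx and its relatives bind), a Smad site (CAGAC), an AP-1 site (TGANTCA), the letters TATAAA or a CArG box, so nothing is in capitals. Of the 27025 windows, 1 per gene, 7.93% held the AP-1 letters and 14.2% TATAAA. The absence of these letters here says nothing about sites elsewhere in the genes.

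Eya2 stood at 1.11, 2.23 and 0.67 in outer replicates 1, 2 and 3 and at 4.19, 3.54 and 3.42 in intermediate replicates 1, 2 and 3. Every outer sample lay below every intermediate sample, which held for 26.3% of all tested probes in one direction or the other and for 11.4% with the outer samples lower. Outer samples averaged 1.34 ± 0.80 and intermediate samples 3.72 ± 0.41 (SD, n = 3 each). The difference was -2.38 with SE 0.42 (95% interval -3.36 to -1.39), so the signal was 5.19-fold lower in the outer interzone (limma adjusted p = 0.0322). Within replicate numbers the outer sample was lower by 3.07, 1.31 and 2.74. Blocking on replicate number gave adjusted p = 0.0402. The slide-adjusted difference was -2.60, with adjusted p = 0.0527 for the slide block and 0.0151 within slide 1. The call was lost without outer replicate 1 or 3 (limma adjusted p = 0.0838 and 0.0934) and without intermediate replicate 1, 2 or 3 (0.132, 0.0873 and 0.108). It was kept without outer replicate 2 (0.0116). Over all 17 alternatives the difference stayed between -3.07 and -2.04 and the adjusted p ran from 0.00782 to 0.223.

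The genes whose centred profiles lay closest to that of Eya2 were Rnase4 (root mean square difference 0.25), C1qtnf3 (0.26) and Tagln (0.29). Rnase4 encodes a secreted ribonuclease, C1qtnf3 a secreted protein of the C1q and TNF family, and Tagln an actin-binding protein of smooth muscle. Being chosen for a profile like that of Eya2, they also had its layer difference, at -2.11, -2.78 and -2.25 (limma adjusted p = 0.0166, 0.0122 and 0.0237). Leukocyte and endothelial markers fell in the same samples. The mean of 12 leukocyte markers was -1.32, 0.45 and -0.64 in outer samples and 2.42, 2.26 and 3.05 in intermediate samples, and that of 10 endothelial markers ran from -1.10 to 0.08 in outer and from 1.49 to 1.94 in intermediate samples. Their part in the Eya2 result was not tested. Skeletal muscle also uses genes of the Eya family. All 12 tested muscle markers had differences below 0, with a median of -0.94, and limma called 0 of them, against 3.73% of all tested genes. An unadjusted p under 0.05 was found for 1, against 20.7% of all tested genes. The slide block called 4 of the 12 lower, against 6.71% of all tested genes called, with a median of -3.40, and both blocks together called 5 lower, against 4.89%. Without outer replicate 1 their median was 0.37. The part of muscle in the Eya2 result was not tested.

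**Figure D3:**
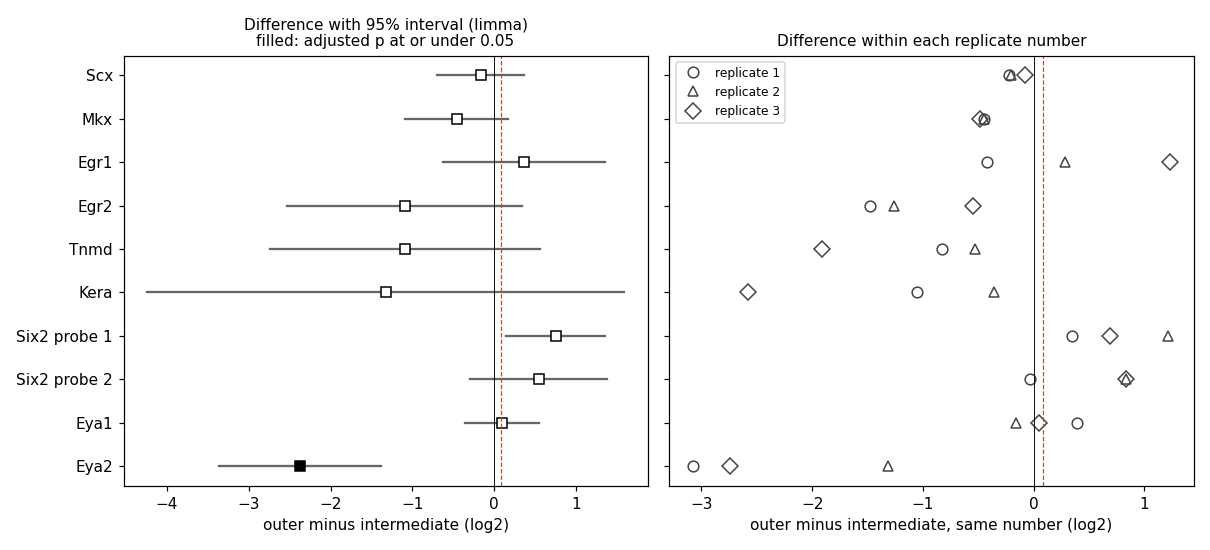
Left, the outer minus intermediate difference of the 10 tested probes in log2 units with its 95% interval from limma, filled where the adjusted p was at or under 0.05; right, the same difference within each replicate number. Eya2 is the filled point at -2.38, and the dashed line is the median of all tested probes, 0.09.

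Six2 had 3 probes, of which 2 were tested. The first, A_55_P2033308, stood at 2.58, 3.02 and 2.30 in outer samples and 2.23, 1.81 and 1.61 in intermediate samples. The layers did not overlap, though the lowest outer and the highest intermediate sample lay close together, and the outer sample was higher in each number by 0.35, 1.21 and 0.69. The difference was 0.75 (95% interval 0.14 to 1.36), a ratio of 1.68. It missed the threshold in limma (adjusted p = 0.17), also when blocked on replicate number (adjusted p = 0.0879). The slide-adjusted difference was 0.70, and with arrays scaled to their medians it was 0.31. Over the 17 alternatives its adjusted p ran from 0.0879 to 0.561.

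The second Six2 probe, A_51_P354224, was dim, at -2.23, -2.66 and -2.53 in outer samples and -2.20, -3.49 and -3.36 in intermediate samples. Outer replicate 1 was not well above background and the layers overlapped (difference 0.54, 95% interval -0.30 to 1.38, limma adjusted p = 0.437, slide-adjusted difference 0.78). The third, A_55_P2119234, designed to a separate transcript sequence (AK142139), stayed below the well-above-background mark on all 6 arrays and was not tested. Both tested probes thus had a higher mean in the outer interzone, and neither passed.

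The Eya1 probe gave nearly the same level everywhere, at 4.90, 4.83 and 4.75 in outer samples and 4.51, 4.996 and 4.69 in intermediate samples. The difference was 0.09 (95% interval -0.35 to 0.54, limma adjusted p = 0.82, slide-adjusted difference 0.17), and it turned to -0.35 when arrays were scaled to their medians. This value is not taken here as the level of Eya1. The probe ends in an uninterrupted run of 34 bases of alternating T and G, whereas the longest such run in any other member probe was 5 bases. Another 10 probes on the array, 9 of them named for other genes, had a run at least as long.

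All 10 of those probes were well above background on all 6 arrays, against 33.8% of all probes. The share of probes above background on all arrays was 33.6% of 55550 probes with a run of at most 11 bases, 87.1% of 70 with 12 to 19 bases and 100% of 41 with 20 to 33 bases. The centred profile of the Eya1 probe differed from theirs by a root mean square of 0.05 to 0.12. Their differences between the layers ran from 0.01 to 0.18, with that of the Eya1 probe at 0.09. The other probes are named for genes such as Hemgn, Ung, Sp110, Madd and Pak4. How much of the Eya1 probe's signal comes from Eya1 was not tested.

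**Figure D4:**
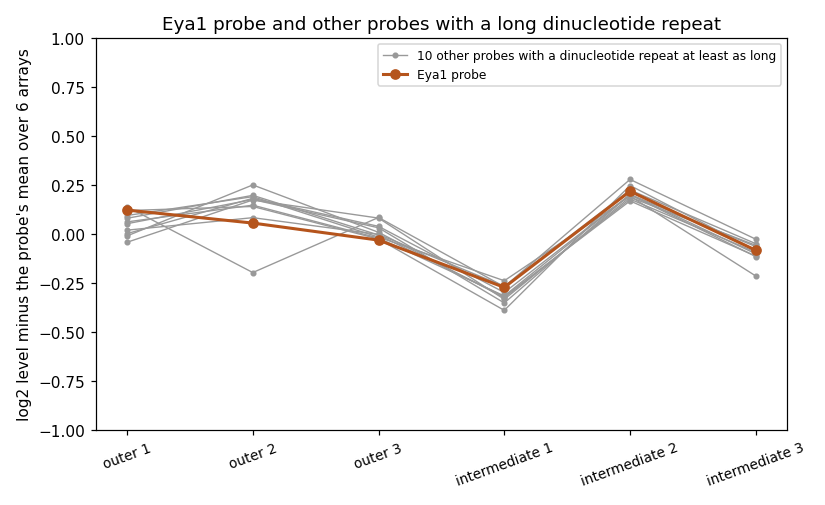
The Eya1 probe and the 10 other probes with a repeat at least as long on each of the 6 arrays, each as its log2 level minus its own mean over the arrays. All of them dip in intermediate replicate 1, and the lines join arrays only to guide the eye.

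Paired by replicate number, 6 of the 10 tested probes were lower in the outer sample of every pair, those of Scx, Mkx, Egr2, Tnmd, Kera and Eya2. This held for 22.4% of all tested probes. The first Six2 probe was higher in every pair, as were 35.5% of all tested probes. The pairs are the same 3 embryos for each gene if the numbers mark embryos, which the labels do not state, so these counts are not independent of each other.

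By the same measure over the 6 arrays, the genes nearest to Mkx were Sec13 (root mean square difference 0.08), Ajuba (0.08) and Mmp11 (0.10). Those nearest to the first Six2 probe included Kif5a (0.06) and Ccnd2 (0.15), and those nearest to Scx included Dhrs1 (0.15) and Gpaa1 (0.15). Scx itself ran only from 5.23 to 5.91. Genes with a range under 1 log2 unit were not candidates, so flatter genes may lie nearer to Scx than the genes given here. None of these genes was called by limma between the layers.

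Of 13 listed relatives of Six2 and Eya2 and their partner genes, 8 were tested and limma called 0. An unadjusted p under 0.05 was found for 0, against 20.7% of all tested genes. With the replicate block limma called 0 as well, with 2 at an unadjusted p under 0.05, against 32.6%. At shares of 3.73% and 7.54% over all tested genes, a count of 0 among 8 genes decides nothing. Differences ran from -1.12 for the corepressor gene Dach1 to 1.64 for the paired box gene Pax1, and the layers of Pax9 did not overlap (0.44). The slide block gave a call for Dach1, at -2.36 (adjusted p = 0.0151). The homeobox gene Six5 stood at 2.97, 2.52 and 2.64 in outer samples and 2.57, 2.63 and 2.32 in intermediate samples (difference 0.21, limma adjusted p = 0.591). The phosphatase genes Eya3 and Eya4 differed by 0.10 and 0.25 (limma adjusted p = 0.828 and 0.651). The median difference of the 8 genes was 0.15, and it turned to -0.29 when arrays were scaled to their medians.

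All tendon matrix genes listed were well above background on all 6 arrays. Of 18 genes, all were tested and limma called 0, against 3.73% of all tested genes. An unadjusted p under 0.05 was found for 3, a share near the 20.7% over all tested genes. The median difference of the 18 was -0.27, and the slide-adjusted median was 0.17. The genes with the brightest probes, Col1a2 and Col3a1, which encode chains of fibrillar collagens I and III, differed by 0.07 each (limma adjusted p = 0.927 and 0.892). Blocking on replicate number brought 3 calls here, against 7.54% of all tested genes called. With slide blocked as well, only replicate 1 is compared, which cannot decide whether these calls hold. The small proteoglycan gene Fmod was higher in the outer interzone (0.83, adjusted p = 0.0407), and its relative Lum and the thrombospondin gene Thbs4, a matrix protein of tendon, were lower (-1.18 and -1.53, adjusted p = 0.034 and 0.0429). Thbs4 stood at 4.57, 4.43 and 4.66 in outer samples and 6.80, 5.55 and 5.91 in intermediate samples and just missed the threshold without the block (adjusted p = 0.0531 in limma).

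Of 16 genes of signals that induce tendon progenitors, 15 were tested and limma called 0, against 3.73% of all tested genes. An unadjusted p under 0.05 was found for 7, against 20.7% of all tested genes. The median difference of the 15 was -0.32. For 8 of the 15 the layers did not overlap, against 27.1% of all tested genes. Of them 5 were lower and 3 higher in the outer interzone, against 11.4% and 15.6% of all tested genes. The receptor gene Fgfr1, the brightest with Tgfb3, stood at 5.89, 5.93 and 5.90 in outer samples and 4.94, 5.14 and 5.28 in intermediate samples (difference 0.78, limma adjusted p = 0.0584). The ligand gene Tgfb3 differed by -0.35 (limma adjusted p = 0.275). Blocking on replicate number alone brought 3 calls, against 7.54% of all tested genes called, with Fgfr1 higher (adjusted p = 0.0454) and the FGF ligand gene Fgf18 and the FGF inhibitor gene Spry1 lower in the outer interzone (-1.14 and -0.85, adjusted p = 0.0358 and 0.0398). With slide blocked as well, only replicate 1 is compared, which cannot decide whether these 3 calls hold. There the myostatin gene Mstn, well above background on 2 of the 3 outer arrays, differed by -3.11. The TGF-beta receptor gene Tgfbr2, at 3.94, 4.04 and 4.07 in outer and 5.01, 4.59 and 4.93 in intermediate samples, did not pass without the block or with it (adjusted p = 0.0624 and 0.0515 in limma).

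Of 13 further genes associated with tendon cells, 11 were tested and 1 was called, higher in the outer interzone, as were 1.44% of all tested genes. It was Fibin, a gene of a secreted protein, at 6.65, 6.51 and 6.30 in outer samples and 4.53, 5.41 and 4.73 in intermediate samples, a ratio of 3.03 (limma adjusted p = 0.0255). The median difference of the 11 was -0.33. When blocked on replicate number Htra3, a secreted protease gene, was called lower as well (-1.20, adjusted p = 0.0302). In these lists Fos, Junb, Nab1, Fosl2, Mbp, Pmp22, Pou3f1, Dach1, Pax1, Pax9 and Mstn were named after their values were seen. So were Eya3, Eya4, Fgf18, Spry1, Tgfbr2, Thbs4, Fmod, Lum and Htra3. Gdf5, Erbb3, Egr3 and Egr4 were also named outside the rule for names given below.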

How the data were processed

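RNA of outer and intermediate interzone from embryos at 15.5 days of gestation was measured on 6 arrays, 3 per layer. Signal intensity per spot was deposited as scanner output. Per the file headers it came from Feature Extraction 10.7.3.1, with probe positions on build mm9. It was background-subtracted but not scaled between arrays. The authors also deposited a table of intensity values, found here to be each array's processed signal divided by 1 constant, so that each column's median is 1. Partek 6.11.0321 is named in the submitters' processing notes without a role.

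Control spots and flagged outlier spots were left out, spots of a probe were averaged, and log2 signal minus the log2 of the array's 75th percentile was used. Testing was limited to probes with signal well above background throughout at least 1 layer, that is on its 3 arrays. The comparison used limma 3.58.1 under R 4.3.3 (two-sided, Benjamini-Hochberg over 23881 probes, called at adjusted p 0.05 or less). In gene lists each gene was read from its brightest tested probe. The script was tested on simulated data. The number of arrays limits the precision.

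The members and gene lists were chosen with earlier results of these data known. The rule for names took all member probes, up to 4 called genes per list or the 2 brightest where none was called, and the 3 nearest profiles per member. Deviations from the layer means correlated at 0.537, 0.477 and 0.358 between samples of the same replicate number and at most 0.0947 between others, so replicate number was tried as a block. Normalization, background correction, filter, slide and leaving out each array were the other alternatives. Promoter sequences are from RefSeq, GRCm38.p6. Some results that the rule for names would give are not reported here.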

Additional observations from a re-analysis of the deposited data

How the results depend on the processing

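Of the 17 alternatives, 9 kept the 1 member call, that of Eya2, and 8 gave 0 member calls: quantile normalization, no filter, the slide block and leaving out outer replicate 1 or 3 or any 1 intermediate replicate. Leaving out 1 array gave 0 to 1 member calls. The limma adjusted p of Eya2 was 0.0528 with quantile normalization, 0.223 with no filter and 0.0527 with the slide block. Over all probes 832 were called, against 508 with quantile normalization, 1453 with median scaling, 1360 with the authors' deposited values, 526 with signal required on all 6 arrays, 1557 with the slide block, 1826 within slide 1 and 1723 with the replicate block, and 74 to 1237 when 1 array was left out. With no filter limma called 0, with 5734 at an unadjusted p under 0.05. The split was 317 higher and 515 lower in the outer interzone, against 175 and 1278 with median scaling and 183 and 1177 with the deposited values. These scalings put the median difference of all tested probes at -0.35 and -0.31, against 0.09.

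Directions of uncalled members turned as follows. Egr1 was -0.0783 with median scaling, -0.0292 with the deposited values, -0.59 with the slide block and within slide 1, -0.42 with both blocks. Leaving out 1 array gave -0.0347 (without outer replicate 3) to 0.84. Eya1 was -0.35 with median scaling, -0.30 with the deposited values, -0.0047 with normexp. Leaving out 1 array gave -0.0187 (without intermediate replicate 1) to 0.23. Scx was 0.0775 with the slide block and within slide 1. The dimmer tested Six2 probe was -0.0365 with both blocks. The replicate block changed no member's call. The causes were not tested.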
